A study of Homo sapiens with 4 samples.

Results

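Interferon-stimulated genes are the genes whose transcription rises when a cell meets interferon, and 37 of them were described here by their mRNA level in a pair of human hepatocellular carcinoma lines in which CCDC137, an RNA-binding protein of the nucleus, had been raised or lowered. The 37 genes were taken by name from a given list, and each was present among the 60612 genes of the deposited tables. The study raised CCDC137 in Huh-7 cells and lowered it in PLC/PRF/5 cells, and asked what CCDC137 does in liver cancer cells. The Huh-7 groups were cells with an empty lentiviral vector and cells stably overexpressing CCDC137 from the same kind of vector. The PLC/PRF/5 groups were cells labelled control and cells in which a guide RNA brought dCas9-KRAB, an inactive Cas9 joined to a transcriptional repressor, to CCDC137. Each group had 1 library, 4 in all, so no difference given here has a replicate check and none was tested. The lentiviral vectors for overexpression and knockdown carried puromycin resistance. Whether the PLC/PRF/5 control cells carried a vector is not said. The labels also do not say which of the study's guide RNAs the sequenced knockdown cells carried. No interferon or other inducer is named in the labels of any of the 4 groups.

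Levels are FPKM, fragments corrected for transcript length and for library depth. From the steps of the lowest values, the libraries held about 17800000 to 20700000 fragments. Between 11727 and 11903 genes per library reached an FPKM of 1. CCDC137 itself was at 11.9 FPKM with the empty vector against 229 with overexpression, and at 20.5 FPKM in PLC/PRF/5 control against 0.771 with knockdown, so that both comparisons went the way of their labels. All 9 hepatocyte markers reached an FPKM of 1 in at least 1 library. Against Huh-7 empty vector, 2 were higher and 7 lower in PLC/PRF/5 control cells, 4 of these at least 2-fold lower. ALB, which encodes serum albumin, was at 1084 FPKM in Huh-7 empty vector and 2.15 in PLC/PRF/5 control cells. SERPINA1 was at 296 and 589 FPKM in these libraries, and APOB at 373 and 383. Of 10 immune cell markers 3 reached an FPKM of 1 in a library, and PTPRC, the pan-leukocyte phosphatase CD45, was listed at 0 throughout.

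In the type I pathway, interferon alpha or beta binds the receptor chains IFNAR1 and IFNAR2, whose kinases JAK1 and TYK2 phosphorylate STAT2 among other proteins. Phosphorylated STAT2 joins IRF9 in the complex ISGF3, which binds a short DNA element, the interferon-stimulated response element, and switches on genes that detect viral RNA, block its translation or hold back budding virus. Hepatocytes use this pathway against hepatitis viruses, and PLC/PRF/5 cells carry integrated hepatitis B virus DNA.

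The promoters of 4 members described at length below are shown to locate this element, BST2 and CXCL10 for their gaps between the lines, ISG15 as an abundant member and DTX3L for a match that it shares with PARP9. The core of the element was searched as GAAANNGAAA on the strand of the gene and as TTTCNNTTTC, its form on the other strand, in RefSeq windows of 300 bases, from 250 bases before to 50 bases after each transcription start site (assembly GRCh38.p14). Of the 37 members, 30 had a window, and 22 of these 30 held at least 1 match, against 4.38% of the 27305 genes with a window. Capitals mark the matches, which in the BST2 and ISG15 windows overlap by 4 bases. The windows are chr19:17405581-17405880 on the minus strand for BST2, chr1:1013247-1013546 on the plus strand for ISG15, chr4:76023448-76023747 on the minus strand for CXCL10 and chr3:122564088-122564387 on the plus strand for DTX3L.
BST2: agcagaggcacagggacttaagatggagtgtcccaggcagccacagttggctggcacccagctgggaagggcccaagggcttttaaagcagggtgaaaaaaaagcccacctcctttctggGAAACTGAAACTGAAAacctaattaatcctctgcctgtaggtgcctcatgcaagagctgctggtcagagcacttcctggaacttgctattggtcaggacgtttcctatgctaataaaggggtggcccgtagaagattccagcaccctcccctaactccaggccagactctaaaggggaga
ISG15: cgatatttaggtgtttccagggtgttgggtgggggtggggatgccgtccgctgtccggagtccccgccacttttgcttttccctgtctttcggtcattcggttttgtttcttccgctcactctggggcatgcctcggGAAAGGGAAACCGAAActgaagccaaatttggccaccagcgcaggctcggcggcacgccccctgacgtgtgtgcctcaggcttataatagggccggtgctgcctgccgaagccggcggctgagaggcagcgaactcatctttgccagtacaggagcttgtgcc
CXCL10: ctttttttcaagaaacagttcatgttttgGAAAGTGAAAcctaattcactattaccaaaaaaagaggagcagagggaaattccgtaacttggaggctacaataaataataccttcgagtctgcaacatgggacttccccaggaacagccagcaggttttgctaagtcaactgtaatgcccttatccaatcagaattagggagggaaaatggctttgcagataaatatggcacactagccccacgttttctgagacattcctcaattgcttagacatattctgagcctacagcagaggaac
DTX3L: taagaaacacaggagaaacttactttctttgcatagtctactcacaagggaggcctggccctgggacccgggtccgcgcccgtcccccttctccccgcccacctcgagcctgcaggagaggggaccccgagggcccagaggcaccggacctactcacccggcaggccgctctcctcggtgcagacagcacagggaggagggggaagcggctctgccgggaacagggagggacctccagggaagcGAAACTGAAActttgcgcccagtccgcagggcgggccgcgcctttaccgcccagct

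Positions give the first base of a match, counted from the start site, with -1 for the base before it. In BST2 the matches were at -130 and -124, in ISG15 at -113 and -107, and in CXCL10 at -221. The match of DTX3L was at -6 and ran across the start site. These 10 bases, chr3:122564332-122564341, also lie in the window of PARP9, which is transcribed away from DTX3L on the other strand, where they are at -41. Over all members there were 40 distinct matches, and 12 members held more than 1 match in a window. Of the members at an FPKM of 1 or more in any library 17 of 22 with a window held a match, and of the members below it 5 of 8. The latter are too few to say whether the share differs with mRNA level. The 8 members with a window and no match were CXCL11, HERC6, IFI35, IRF9, OAS1, SAMD9L, STAT2 and XAF1, and TRIM22, IRF7, MX2, OASL, OAS2, IFIT2 and USP18 had no window. A match is a stretch of letters, and no binding was measured here.

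**Figure D1:**
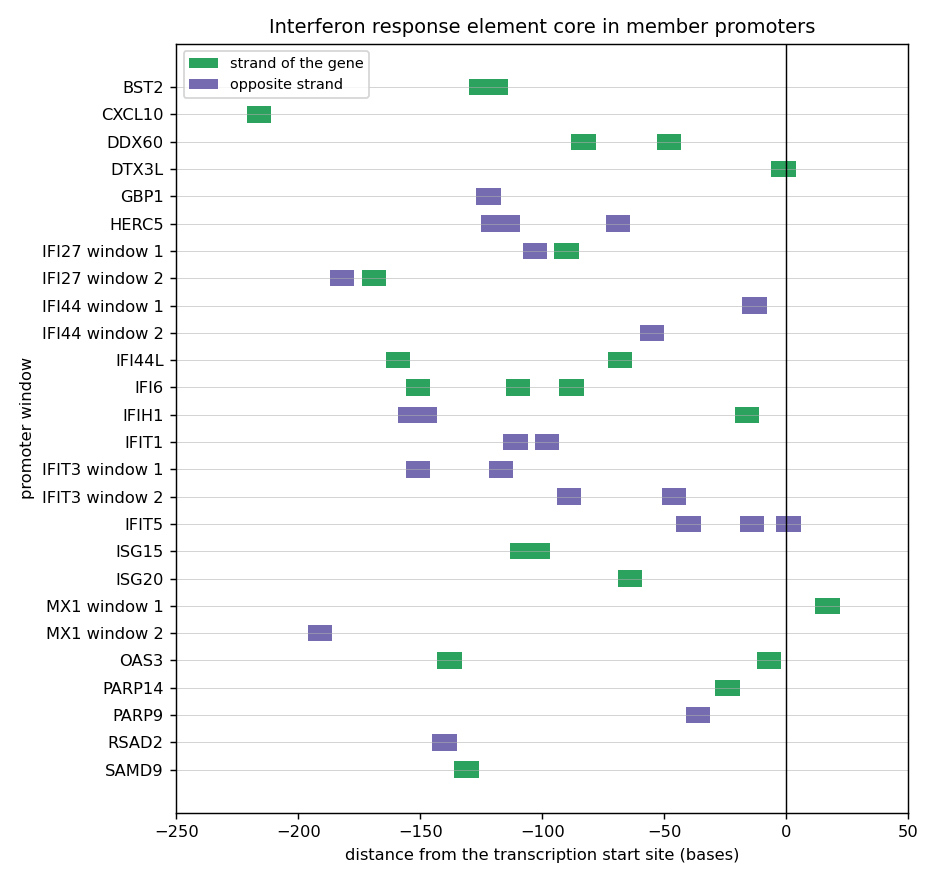
Position of each match to the core of the interferon-stimulated response element (bars of 10 bases, in bases from the transcription start site on the horizontal axis) in the RefSeq windows of the 22 members that held one, with green for matches on the strand of the gene and purple for the other strand. Genes with more than 1 window with a match have a row for each, and nearly all matches lie before the start site, with DTX3L, IFIT5 and MX1 as the genes where one reaches past it.

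The members were expressed unevenly in cells to which no interferon is said to have been given. In at least 1 library 25 of the 37 reached an FPKM of 1, 11 did so in all 4 libraries, and 12 stayed below 1 in every library. By library, 15 (empty vector) and 16 (overexpression) members reached this level in Huh-7, against 20 (control) and 21 (knockdown) in PLC/PRF/5. Of the 25, 13 did so in both lines, 4 only in a Huh-7 library (IFIT2, IFIT3, MX2 and CXCL10) and 8 only in a PLC/PRF/5 library (IFIT5, OAS1, HERC5, HERC6, GBP1, BST2, IFI27 and SAMD9). The 12 low members were OAS2, OASL, DDX60, IRF7, MX1, RSAD2, IFI44, IFI44L, SAMD9L, XAF1, TRIM22 and CXCL11, with a highest value of 0.833 FPKM, for OAS2 in the knockdown cells. RSAD2, which encodes the antiviral enzyme viperin, and XAF1, a proapoptotic factor, were listed at 0 in all 4 libraries. The summed FPKM of the members was 116 (empty vector) and 100.2 (overexpression) in Huh-7 and 248 (control) and 290.3 (knockdown) in PLC/PRF/5, and BST2 alone gave 51.9% and 53.1% of the PLC/PRF/5 sums. In such bulk libraries, fewer cells that express a gene and less of its RNA per cell cannot be told apart.

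**Figure D2:**
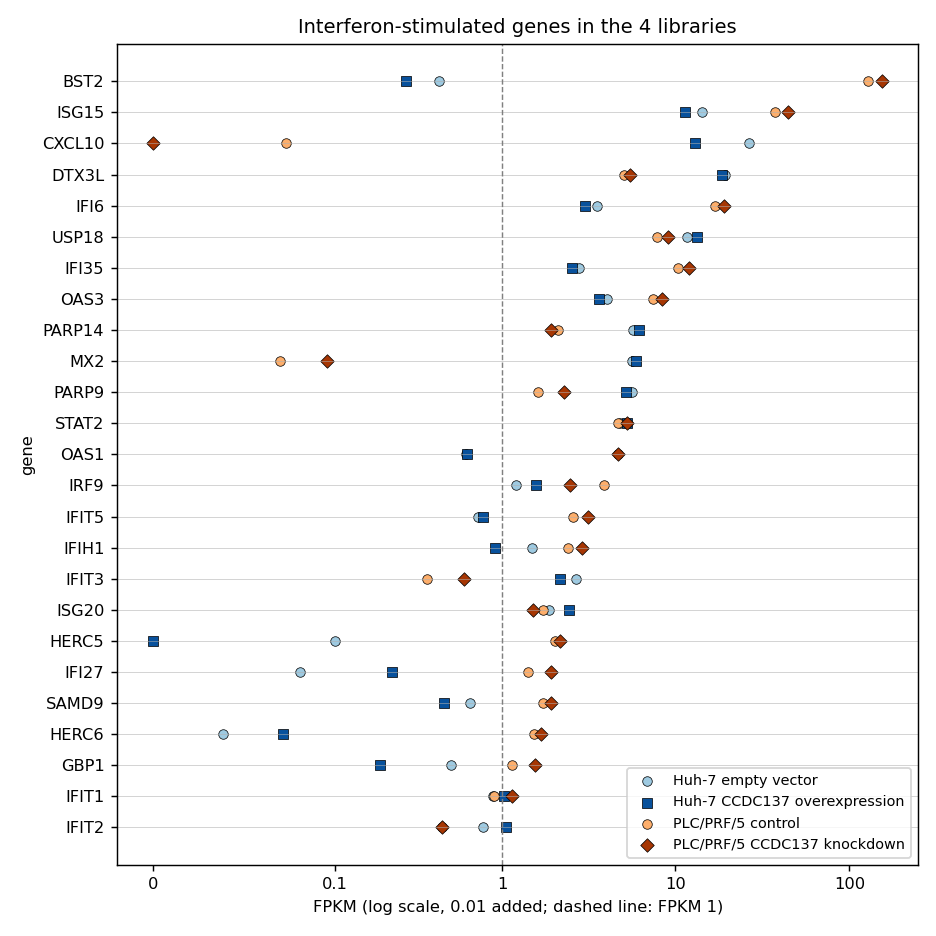
FPKM (horizontal axis, log scale with 0.01 added so that values listed at 0 can be drawn) of the 25 members that reached an FPKM of 1 in any library, with light blue circles for Huh-7 empty vector, dark blue squares for Huh-7 overexpression, orange circles for PLC/PRF/5 control and red diamonds for PLC/PRF/5 knockdown. For most genes the symbols of one line lie close together and apart from those of the other line, as for BST2 at 0.428 and 0.274 against 129 and 154 FPKM.

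The first question was how far the untreated state of the lines differed, for which the control libraries were compared. Differences are given as log2((FPKM + 1)/(FPKM + 1)), which understates those of low genes, over genes that reached an FPKM of 1 in at least 1 of the libraries compared, called expressed below. The lines differed in origin, may also have differed in construct and were deposited in separate tables, and these cannot be told apart. Of 23 expressed members, 10 were at least 2-fold higher in PLC/PRF/5, against 14.6% of all 13304 expressed genes, and 6 were at least 2-fold lower, against 13.6%. In sign alone 14 of the 23 were higher, against 51.9% of all genes. Their median absolute difference was 1.31, against 0.59 for all expressed genes, and their median signed difference was 0.72, against 0.04. These values include members expressed in 1 line only. With an FPKM of 1 required in both libraries, 4 of 12 members were at least 2-fold higher and 3 lower (9.59% and 9.41% of all genes), with a median of 0.21, and with no filter the median was 0.061. The members thus lay on both sides. The intervals given below are exact 95% intervals from the approximate fragment numbers of both libraries, and cover counting error only.

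Membrane effectors and GTPases included BST2 and MX2, which lay far apart between the lines in opposite directions. BST2, or tetherin, which holds budding enveloped viruses at the cell surface, was at 0.428 and 0.274 FPKM in Huh-7 (empty vector, then overexpression) and at 129 and 154 in PLC/PRF/5 (control, then knockdown), the order of every set of 4 values below. Its FPKM was 301-fold higher in PLC/PRF/5 control than in Huh-7 empty vector (156 to 648), from about 9 against 2293 fragments. MX2, a dynamin-like GTPase that restricts viruses at the nuclear pore, was at 5.60, 5.93, 0.0435 and 0.0900 FPKM. It was 129-fold higher in Huh-7 (38.4 to 551), whereas its relative MX1, next to it on chromosome 21, was between 0.161 and 0.401 FPKM in all 4 libraries. IFI6, a small membrane protein that limits flavivirus replication, was at 3.53, 3.00, 16.9 and 18.9 FPKM. IFI27, a small hydrophobic protein that is one of the strongest responders to interferon in many tissues, was at 0.0597, 0.224, 1.42 and 1.92 FPKM, which in Huh-7 empty vector stood for about 1 fragment. GBP1, a guanylate-binding protein that coats intracellular pathogens, was at 0.506, 0.191, 1.13 and 1.56 FPKM. In 5 of the 7 genes of this role an FPKM of 1 was reached, with MX1 and RSAD2 as the exceptions, and of those 5 only MX2 was lower in both PLC/PRF/5 libraries than in both Huh-7 libraries.

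Chemokines were represented by CXCL10 alone. CXCL10, a secreted ligand of CXCR3, a chemokine receptor of T cells, was at 26.4, 12.9 and 0.0478 FPKM, and was listed at 0 in the knockdown cells. These values stood for about 641, 271, 1 and 0 fragments, and the ratio of Huh-7 empty vector to PLC/PRF/5 control was 552 with a wide interval (98.8 to 21844). CXCL11, a ligand of the same receptor, stayed at or below 0.0310 FPKM in every library, so the ligands of this pair differed in Huh-7 cells.

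Of the ISG15 system, ISG15 and USP18 were expressed in both lines, but HERC5 and HERC6 were near 0 in Huh-7. ISG15 is a ubiquitin-like protein that is joined to other proteins after interferon, and its mRNA was at 14.2, 11.4, 37.3 and 44.6 FPKM. HERC5, the main human ISG15 ligase, was at 0.1003, 0, 2.02 and 2.16 FPKM. HERC6, its neighbour on chromosome 4, which serves as the ISG15 ligase in mice, was at 0.0152, 0.0458, 1.52 and 1.67 FPKM. Both HERC genes were thus above 1 in both PLC/PRF/5 libraries and near 0 in both Huh-7 libraries. Other ISG15 ligases were not looked at as such. HERC5 was 20.2-fold higher in PLC/PRF/5 control cells (9.85 to 53.0), and HERC6 100.1-fold higher (20.8 to 4722) over about 1 Huh-7 fragment. USP18, the protease that removes ISG15 and also blocks signalling at IFNAR2, went the other way, at 11.6, 13.4, 7.87 and 9.11 FPKM. USP18 has a near-identical copy, USP41, listed at 0 except for 0.623 FPKM in PLC/PRF/5 control cells, so the split of their reads is uncertain.

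Genes that bind or degrade viral RNA were mostly low, and 7 of 10 reached an FPKM of 1 in some library. The IFIT proteins bind foreign RNA ends and block their translation, and their genes lie side by side on chromosome 10. IFIT1 was at 0.880, 1.03, 0.900 and 1.13 FPKM, nearly level across the libraries, whereas IFIT3, a partner that stabilises IFIT1, was at 2.67, 2.17, 0.365 and 0.603. IFIT5, which binds RNA with a triphosphate end, had the reverse order, at 0.720, 0.773, 2.56 and 3.12 FPKM, and IFIT2 was at 0.775, 1.05, 0.444 and 0.448. Neighbouring genes of the cluster thus differed in which line was higher. IFIT3 was 7.33-fold higher in Huh-7 empty vector than in PLC/PRF/5 control cells (4.22 to 12.8), and IFIT5 was 3.55-fold higher in PLC/PRF/5 control (2.63 to 4.82). Exons of IFIT2 and IFIT3 overlap those of LIPA on the opposite strand, which was between 16.4 and 19.3 FPKM, and the sources used here do not say whether the counting used strand.

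The oligoadenylate synthetases make short signalling oligoadenylates when they meet double-stranded RNA. OAS3, the family member with the highest affinity for long double-stranded RNA, was at 4.03, 3.64, 7.44 and 8.40 FPKM, and OAS1 at 0.620, 0.622, 4.64 and 4.66. Of the other family members, OAS2 was at 0.00729, 0, 0.404 and 0.833 FPKM and OASL, which has lost the enzymatic activity, between 0.0282 and 0.254. OAS1, OAS2 and OAS3 were each higher in both PLC/PRF/5 libraries than in both Huh-7 libraries. ISG20, an exonuclease acting on viral RNA, was at 1.88, 2.43, 1.72 and 1.51 FPKM. DDX60, a helicase linked to RNA sensing, stayed between 0.256 and 0.532.

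The sensor and the transcription factors were less far apart. IFIH1, the cytosolic RNA sensor MDA5, was at 1.48, 0.905, 2.39 and 2.88 FPKM. STAT2 was at 4.77, 5.28, 4.65 and 5.26 FPKM, with a line difference of -0.03, so this subunit of ISGF3 was level between the control libraries (ratio 0.976, 0.847 to 1.12). IRF9, its DNA-binding partner, was at 1.21, 1.58, 3.85 and 2.45 FPKM, a line difference of 1.14. IRF7, which drives the interferon alpha genes once induced, stayed at or below 0.115.

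The PARP9, DTX3L and PARP14 genes were all higher in Huh-7. DTX3L and PARP9 form a ubiquitin ligase complex of the DNA damage and interferon responses, and lie head to head on chromosome 3 with overlapping exons, sharing the match shown above. DTX3L was at 19.3, 18.5, 5.07 and 5.51 FPKM and PARP9 at 5.60, 5.19, 1.60 and 2.28. PARP14, an ADP-ribosyltransferase on the same chromosome, was at 5.71, 6.17, 2.11 and 1.91 FPKM. In Huh-7 empty vector, DTX3L was 3.81-fold (3.47 to 4.20), PARP9 3.49-fold (2.75 to 4.46) and PARP14 2.70-fold (2.37 to 3.10) higher than in PLC/PRF/5 control cells. The remaining members that reached an FPKM of 1 lay the other way. IFI35, a protein released as a danger signal, was at 2.78, 2.54, 10.3 and 11.9 FPKM, and SAMD9, which restricts poxviruses, at 0.652, 0.457, 1.73 and 1.91. SAMD9L, next to SAMD9 on chromosome 7, was at or below 0.0897 FPKM in every library. IFI44, IFI44L and TRIM22 were at or below 0.0710.

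**Figure D3:**
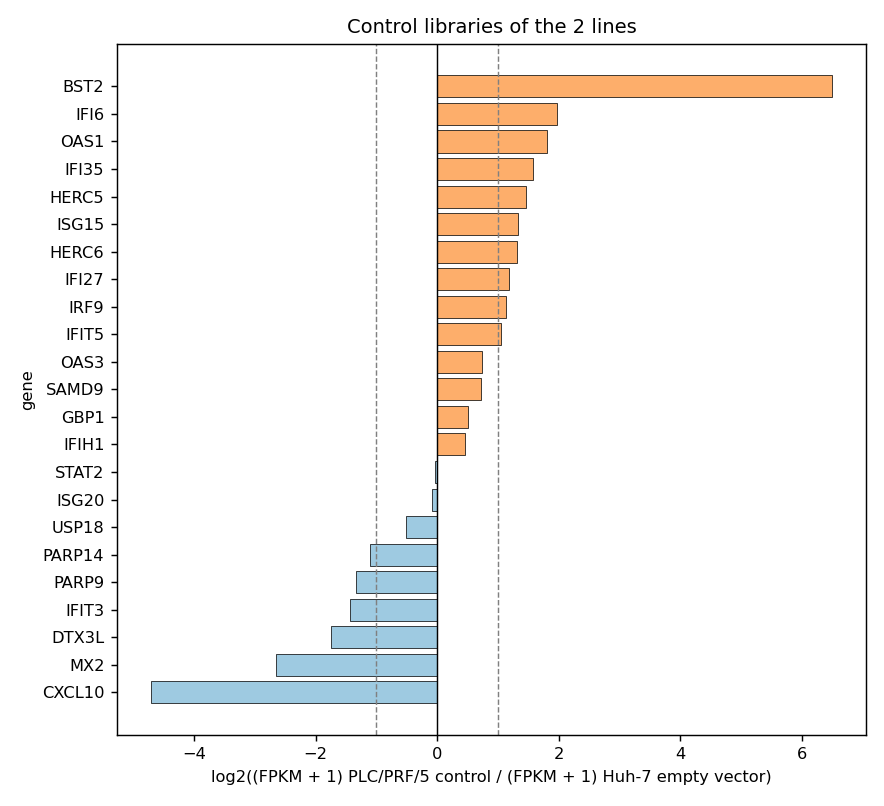
Difference of each of the 23 expressed members between the control libraries of the lines, as log2((FPKM + 1)/(FPKM + 1)) on the horizontal axis, with orange bars for genes higher in PLC/PRF/5 control, blue bars for genes higher in Huh-7 empty vector and dashed lines at 2-fold. The bars run from -4.71 for CXCL10 to 6.51 for BST2, and 16 of the 23 pass a dashed line.

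The next question was how these genes differed in Huh-7 cells that overexpressed CCDC137. Differences were small, and CXCL10 was the exception. Of 17 expressed members, 0 were higher by at least 0.32 on this log2 scale, against 8.85% of all 12255 expressed genes, and 2 were lower by as much, against 7.87%. After every library was scaled to the same, larger sum, which lets low genes count more, 3 of 23 were higher and 4 lower by 0.32. The shares of all genes were then 18.4% and 12.2%. With a pseudocount of 0.1, 3 of 17 were higher, against 13.0% of all genes. With an FPKM of 1 required in both libraries 1 of 14 was lower, against 6.67%. In sign 8 of the 17 were higher, against 53.6% of all genes, and 0 of the 17 differed 2-fold either way, against 2.15%. The median difference was -0.06, against 0.01 for all expressed genes, and the median absolute difference 0.18, against 0.13.

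With the control value first, CXCL10 was at 26.4 and 12.9 FPKM, a difference of -0.97 and a ratio of 0.490 (0.424 to 0.566). IFIH1 was at 1.48 and 0.905 FPKM, a difference of -0.38 and a ratio of 0.611 (0.437 to 0.847). These were the expressed members past 0.32, and their counting intervals lay below a ratio of 1. USP18, at 11.6 and 13.4 FPKM, was the other expressed member whose interval left out a ratio of 1 (1.15, 1.007 to 1.32). Below an FPKM of 1 in both Huh-7 libraries, GBP1 (0.378, 0.168 to 0.812), SAMD9 (0.702, 0.487 to 0.978) and HERC5 (0, 0 to 0.804) were lower with such intervals. ISG15 was at 14.2 and 11.4 FPKM (-0.29) and IFIT3 at 2.67 and 2.17 (-0.21), while ISG20 was at 1.88 and 2.43 (0.25) and IRF9 at 1.21 and 1.58 (0.23). The other expressed members lay between -0.18 for IFI6 and 0.21 for IFIT2.

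In PLC/PRF/5 cells the question was how they differed after knockdown of CCDC137. Most members were slightly higher in the knockdown library. Of 21 expressed members 18 were higher in sign, against 47.8% of all 12300 expressed genes. By at least 0.32 on the log2 scale 1 was higher, against 7.15%, and 1 was lower, against 7.62%, and 0 differed 2-fold either way, against 2.3%. After scaling to the larger sum, 6 of 26 were higher and 1 lower by 0.32, against 12.9% and 13.7% of all genes. With a pseudocount of 0.1, 3 of 21 were higher (9.99% of all genes), and with no filter 2 of 35 (5.76%). The median difference was 0.16, against -0.01 over all expressed genes, and the members ran from -0.49 to 0.34. The members thus mostly lay on one side, each by a small difference. How far replicate cultures would differ was not measured.

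PARP9, at 1.60 and 2.28 FPKM, was the expressed member past 0.32 on the higher side, with a difference of 0.34 and a ratio of 1.42 (1.08 to 1.88). Its head-to-head partner DTX3L was at 5.07 and 5.51 FPKM, a difference of 0.10. Their exons overlap on opposite strands, and whether the counting used strand is not given. The most abundant members followed, with BST2 at 129 and 154 FPKM (0.26, ratio 1.20, 1.13 to 1.26) and ISG15 at 37.3 and 44.6 (0.25, ratio 1.19, 1.05 to 1.36). OAS3 at 7.44 and 8.40 FPKM (0.16) and IFIT5 at 2.56 and 3.12 (0.21) were the other higher expressed members whose counting intervals left out a ratio of 1. Below an FPKM of 1 in both PLC/PRF/5 libraries, OAS2 (ratio 2.06, 1.37 to 3.22) and MX1 (2.49, 1.07 to 6.38) were higher with such intervals. Other genes of like difference were lower in abundance, with IFI27 at 1.42 and 1.92 FPKM (0.27) and GBP1 at 1.13 and 1.56 (0.26). IFIH1, IFI35 and USP18 each stood at 0.19, IFIT1 at 0.17, IFI6 at 0.16 and STAT2 at 0.15. OAS1 was level, at 4.64 and 4.66 FPKM, and HERC5, HERC6 and SAMD9 differed by 0.06 to 0.09. The lower expressed members were IRF9 (-0.49), ISG20 (-0.12) and PARP14 (-0.09).

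Across the treatments, 13 members were expressed in both comparisons. Of these, 7 were lower with CCDC137 overexpressed and higher with it knocked down (21.5% of the 10698 genes expressed in both), namely IFIH1, ISG15, IFI6, IFI35, OAS3, PARP9 and DTX3L. In 3, ISG20, IRF9 and PARP14, the order was reversed (27.2%), and IFIT1, USP18 and STAT2 were higher in both (25.7%). None was lower in both (0, against 25.6%). These directions are by sign only. Among the 7, the counting interval left out a ratio of 1 only on overexpression for IFIH1 and only on knockdown for ISG15, OAS3 and PARP9. For IFI6, IFI35 and DTX3L it held 1 in both comparisons. The comparisons used different lines and shared no library.

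**Figure D4:**
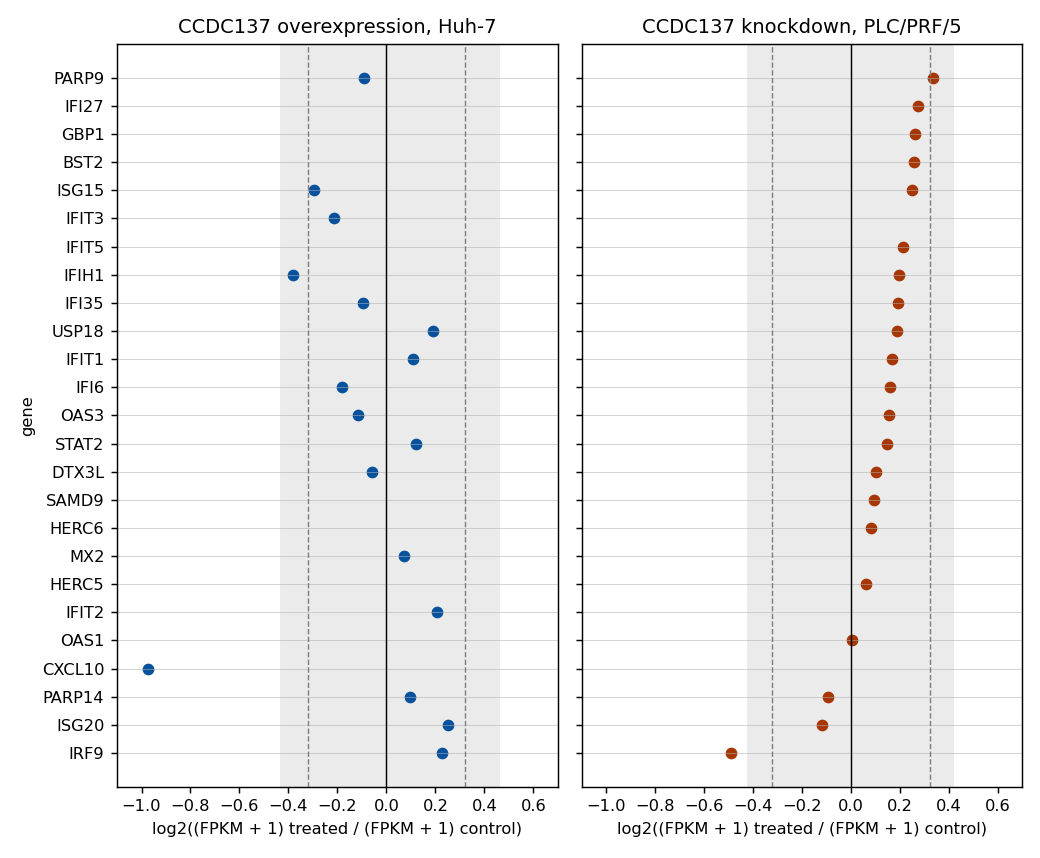
Difference of each expressed member on CCDC137 overexpression in Huh-7 (left, 17 genes) and on CCDC137 knockdown in PLC/PRF/5 (right, 21 genes), as log2((FPKM + 1)/(FPKM + 1)) of treated against control, with dashed lines at -0.32 and 0.32 and a grey band from the 5th to the 95th percentile of all expressed genes. Points lie on both sides of 0 on the left, with CXCL10 at -0.97 outside the band, and mostly above 0 on the right, with IRF9 at -0.49 outside it.

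IRF9 shares exon sequence with an overlapping transcript. On chromosome 14 the exons of IRF9 and of RNF31, which encodes a subunit of the linear ubiquitin ligase, overlap on the same strand those of AL136295, a transcript annotated across both genes. AL136295 was at 4.60, 2.81, 2.70 and 7.51 FPKM, and RNF31 at 2.76, 2.90, 6.76 and 2.03. Thus where IRF9 was higher on overexpression (0.23) AL136295 was lower (-0.55), and where IRF9 and RNF31 were lower on knockdown (-0.49 and -1.35) AL136295 was higher (1.20). The part of this overlap in the IRF9 difference was not tested. IRF9 was the only member lower by 0.32 on knockdown. It is among the 4 members whose exons overlap another gene on the same strand, so leaving these out gives 0 by construction. PSME2, on the opposite strand, was between 17.3 and 20.0 FPKM.

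**Figure D5:**
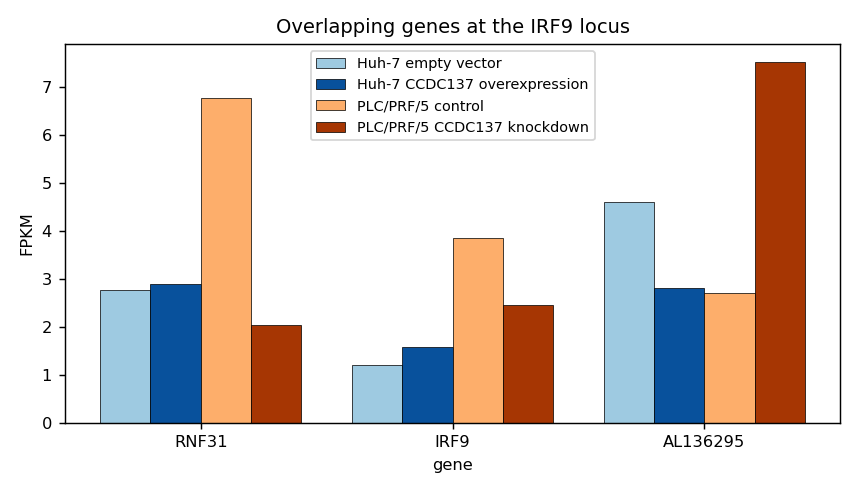
FPKM (vertical axis, from 0) of RNF31, IRF9 and the overlapping transcript AL136295 in the 4 libraries, shown as bars in light blue for Huh-7 empty vector, dark blue for Huh-7 overexpression, orange for PLC/PRF/5 control and red for PLC/PRF/5 knockdown. From control to knockdown in PLC/PRF/5 the bars of RNF31 and IRF9 are lower (6.76 to 2.03 and 3.85 to 2.45) and the bar of AL136295 is higher (2.70 to 7.51).

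The upstream parts of the pathway were listed without their ligands. All 21 interferon genes looked up, among them IFNB1, IFNG and IFNL1, were listed at 0 in all 4 libraries. Of 10 receptor and JAK-STAT genes 9 were expressed in each comparison. On overexpression 4 were higher and 5 lower with 0 past 0.32, and on knockdown again 4 were higher and 5 lower, with IFNAR1, a chain of the type I receptor, past it at 14.1 and 9.81 FPKM (-0.48). Receptor and signalling genes were thus near level in both comparisons apart from IFNAR1.

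Of 14 genes of nucleic acid sensing and interferon induction 9 were expressed. On overexpression 5 were higher and 4 lower, with IKBKE, a kinase that activates IRF3, past 0.32 at 3.20 and 2.22 FPKM (-0.38). On knockdown 7 were higher and 2 lower, with MAVS, the mitochondrial adaptor of IFIH1, past it at 8.31 and 14.0 FPKM (0.69). In Huh-7, MAVS was at 28.3 and 28.9 FPKM. Of 9 negative regulators, 5 were higher and 4 lower on overexpression, where SOCS1, an inhibitor of JAK kinases, was at 1.76 and 0.888 FPKM (-0.55), and 5 of 8 were higher on knockdown with 0 past 0.32.

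Markers of other cell types were low or lay outside their usual cells. LYZ, which encodes lysozyme and is a marker of myeloid cells, was at 197, 161, 129 and 206 FPKM. The other immune markers that reached an FPKM of 1 were CD68, at 8.45, 4.60, 38.2 and 43.8, and CD14, at 4.59, 4.81, 0 and 0.0292. Mostly through LYZ, the summed FPKM of the 10 immune markers was 210 and 170.0 in Huh-7 and 167 and 250.2 in PLC/PRF/5. In each treatment comparison this sum went the same way as the summed FPKM of the members. Between the control libraries the sums went opposite ways, with the members at 116 in Huh-7 empty vector and 248 in PLC/PRF/5 control. The part of this in the members' values was not tested. PTPRC, MS4A1, NKG7 and CLEC4C, which define leukocytes, B cells, killer cells and the plasmacytoid dendritic cells that make most interferon alpha, were listed at 0 in all 4 libraries. Of 9 fibroblast and endothelial markers 2 reached an FPKM of 1 in a library. The summed FPKM of the 9 was 32.5 and 26.7 in Huh-7 and 1.75 and 2.10 in PLC/PRF/5. Most of the Huh-7 sums was LUM, at 28.7 and 22.8 FPKM, against 0.328 and 0.285 in PLC/PRF/5.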

How the data were processed

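Total RNA of 4 cell cultures was enriched for mRNA, fragmented and sequenced, 1 library per group. Per the submitters' notes, reads were trimmed, aligned and quantified with tools that include HISAT2 2.0.4, StringTie 1.3.4d and cutadapt. The study describes library preparation with dUTP in the second strand. Not given in the sources used here are the build, the gene annotation and the use of strand in counting. The authors deposited FPKM per gene and library, in a separate table for each line, with 0.0001 standing for 0, which was set to 0. Their tables also hold a fold, its log2, a p-value, a q-value and a significance mark for each comparison, none of which was used. Library sums lay between 276444 and 289684 FPKM.

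Differences were log2((FPKM + 1)/(FPKM + 1)) over expressed genes, those reaching an FPKM of 1 in at least 1 library compared, computed with scipy 1.17.1, pandas 2.3.3 and numpy 2.4.6 under Python 3.11.15. With 1 library per group there was no test, and members were set beside all expressed genes past a log2 difference of 0.32 (treatments) or 2-fold (lines). Fragments were estimated from the steps of low FPKM values of genes with 1 transcript, using transcript lengths of GENCODE 44, and 30.7% to 31.8% of these values lay within 2% of a whole number. Intervals on ratios are exact (Clopper-Pearson) at 95%, and cover counting error only, since amplified reads are not independent molecules. Exon overlaps were read from GENCODE 44 and promoters from RefSeq. The code for the difference and its threshold was run on values with exact 2-fold changes put in and no noise added. This checked the arithmetic only, and not the fragment estimates, intervals, motif search or exon overlaps. The members, the gene lists and the alternatives were chosen with earlier results of these data known. Named were all members reaching an FPKM of 1, CCDC137, and up to 4 genes of each other list past 0.32. Overlapping genes and the markers named by value were chosen after their values were seen. Some genes looked up are not reported here.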

Additional observations from a re-analysis of the deposited data

How the results depend on the processing

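Of 54 recomputed values over 5 other settings chosen at the outset and 1 added after seeing the data, 39 stayed close to those reported and 15 moved. No median difference changed sign, and the counts of members have no sign that could change. With a pseudocount of 0.1 in place of 1, 3 of 17 members were higher by 0.32 on overexpression and 3 of 21 on knockdown. The shares of all genes were 13.0% and 9.99%, and the median line difference of the members was 1.03. With no filter on low values 2 of 35 members were higher on knockdown (5.76% of all genes) and the median line difference was 0.061. With an FPKM of 1 required in both libraries, 1 of 14 members was lower on overexpression, against 6.67% of all genes. Between the lines 4 of 12 were then higher and 3 lower (9.59% and 9.41% of all genes), with a median of 0.21. With every library rescaled to the same, larger sum, 3 of 23 members were higher and 4 lower on overexpression (18.4% and 12.2% of all genes). On knockdown 6 of 26 were then higher (12.9%), and the median line difference was 0.83. Without the 4 members that overlap another gene on the same strand, the alternative added later, the median line difference was 0.50. The count of 0 then lower on knockdown follows from leaving out IRF9. The cause of these shifts was not tested, except that the filters change which genes are counted. No paired analysis was possible because each group had 1 library. For the same reason no replicate could be left out. Depth limits members below an FPKM of 1, which stood for few fragments in several cases, such as about 1 fragment of CXCL10 in PLC/PRF/5 control cells.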

Other observations

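Of 19 interferon-gamma response genes, which are switched on in part through the transcription factor IRF1, 11 reached an FPKM of 1 in some library. On overexpression 0 of 9 expressed genes were higher and 9 were lower, with a median difference of -0.13 and SOCS1 (1.76 and 0.888 FPKM) past a log2 difference of 0.32. On knockdown 7 of 10 were higher, with a median of 0.11 and 0 past 0.32. Over all expressed genes 53.6% were higher on overexpression and 47.8% on knockdown. GBP2, a guanylate-binding protein chosen after its values were seen, was at 16.7 and 13.4 FPKM in Huh-7 empty vector and overexpression, and at 4.43 and 5.14 in PLC/PRF/5 control and knockdown cells.

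Of 40 other interferon-stimulated genes outside the 37, 31 reached an FPKM of 1 in some library. On overexpression 9 of 27 expressed genes were higher and 18 lower, with a median of -0.10, 1 past 0.32 on the higher side and 5 on the lower. LGALS3BP, a secreted glycoprotein, was at 4.47 and 2.43 FPKM, UBE2L6, the conjugating enzyme of ISG15, at 3.79 and 2.36, and CASP1, the inflammatory caspase, at 1.34 and 0.647. TRIM34 was at 2.58 and 1.38 FPKM, beside the overlapping readthrough gene TRIM6-TRIM34 at 0 and 0.794. On knockdown 17 of 28 were higher and 11 lower, with a median of 0.03. LY6E, a membrane protein that blocks coronavirus entry, was at 4.00 and 12.3 FPKM in control and knockdown cells, while TRIM26, a ubiquitin ligase, was at 27.4 and 10.6 and SHISA5 at 26.5 and 19.4. IFITM3, which blocks the fusion of viruses in endosomes and was chosen after its values were seen, was at 78.1 and 65.9 FPKM in Huh-7 and 338 and 407 in PLC/PRF/5. Its near-identical relative IFITM2 was at 0.308, 0.581, 46.1 and 53.6 FPKM, and the split of their reads is uncertain.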
